A study of Homo sapiens with 12 samples.

Results

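Members of the BCL2 family and the inhibitor of apoptosis BIRC7 were followed through the deposited table of normalized reads. The members were chosen by symbol, 10 genes in all, and all 10 were present among the 12616 genes listed. They were the survival proteins BCL2, BCL2A1, BCL2L1 and MCL1, the BH3-only proteins BCL2L11, BBC3 and PMAIP1, the pore-forming effectors BAX and BAK1, and the inhibitor of apoptosis protein BIRC7. The data came from MeWo and SkMel28, human melanoma cell lines, each with a short hairpin RNA that doxycycline (Dox) switches on and that targets MITF, the transcription factor of the melanocyte lineage. Both lines carried the hairpin in both arms, and cells were kept for 8 days with 0 µg/ml Dox (control) or 1 µg/ml Dox, with 3 libraries in each of the 4 groups and 12 in all. The labels give EMEM as the medium of MeWo and RPMI as that of SkMel28, whereas the study's methods name RPMI for its human melanoma lines in general, so that if the labels hold, line and medium cannot be told apart. Further, no line given Dox without the hairpin was analysed here, so that a change with Dox is that of hairpin and drug together. Nothing in the labels says that the 3 libraries of a group came from separate cultures, and the p-values therefore measure the spread between these libraries, which may be technical.

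Mitochondrial apoptosis is decided by contacts within the BCL2 family. The effectors BAX and BAK1 open the outer mitochondrial membrane, the survival proteins hold them in check, and the BH3-only proteins, each made or activated under a particular stress, occupy the survival proteins or engage the effectors directly. BIRC7 (also called livin or ML-IAP) belongs to another family, acts on caspases further downstream and is known for its abundance in melanoma. BCL2, BCL2A1 and BIRC7 are each known from earlier work as target genes of MITF, which binds E-box sequences.

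The upstream promoter sequences of the members that held an E-box are shown first, because they are where MITF could bind near the start of these genes. RefSeq promoters of GRCh38.p14, which run from 250 bases before to 50 bases after the annotated start, were found for 9 of the 10 members, with 2 for BCL2L1. The letters CACGTG, and CATGTG with its reverse complement CACATG, were searched on both strands, and 4 of the 9 members held either. The following are the 250 bases before the start, 5′ to 3′ on the strand of the gene, with these letters in capitals: BCL2A1 at chr15:79971197-79971446 (minus strand), BIRC7 at chr20:63235655-63235904 (plus strand), BBC3 at chr19:47232668-47232917 (minus strand) and BAX at chr19:48954625-48954874 (plus strand).
BCL2A1: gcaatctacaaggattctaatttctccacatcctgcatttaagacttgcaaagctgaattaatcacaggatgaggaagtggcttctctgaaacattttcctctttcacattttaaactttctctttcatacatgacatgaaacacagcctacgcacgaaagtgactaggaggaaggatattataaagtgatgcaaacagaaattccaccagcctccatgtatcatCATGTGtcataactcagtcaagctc
BIRC7: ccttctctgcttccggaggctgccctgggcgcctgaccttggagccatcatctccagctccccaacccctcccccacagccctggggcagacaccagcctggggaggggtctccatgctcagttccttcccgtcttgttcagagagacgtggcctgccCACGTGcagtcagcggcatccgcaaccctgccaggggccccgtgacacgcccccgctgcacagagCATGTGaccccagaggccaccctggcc
BBC3: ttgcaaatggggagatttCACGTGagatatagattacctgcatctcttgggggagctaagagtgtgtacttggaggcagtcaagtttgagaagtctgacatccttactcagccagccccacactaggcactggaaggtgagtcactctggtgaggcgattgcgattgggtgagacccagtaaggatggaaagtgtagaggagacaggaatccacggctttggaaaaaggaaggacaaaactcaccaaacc
BAX: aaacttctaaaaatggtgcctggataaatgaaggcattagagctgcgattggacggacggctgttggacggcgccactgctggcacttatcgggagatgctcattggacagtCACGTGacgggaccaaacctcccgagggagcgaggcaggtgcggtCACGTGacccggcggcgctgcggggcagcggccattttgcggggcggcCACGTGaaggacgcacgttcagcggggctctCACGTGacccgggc
BCL2A1 held 1 CATGTG from position -25, counted from the start. BIRC7 held 1 CACGTG from position -92 and 1 CATGTG from -27. BBC3 held 1 CACGTG from position -232, far from the start. BAX stood out by number, with 4 copies of CACGTG from positions -138, -93, -45 and -14. Among all 35116 RefSeq promoters of the same length, 7.26% held CACGTG, 11.1% held CATGTG and 17.6% held either, and 4 or more copies of CACGTG were found in 5 promoters (0.0142%). The longer forms TCACGTG and TCATGTG were held by 3.71% and 2.92% of them. Among the 14051 promoters of listed genes the shares were 9.52% for CACGTG, 7.60% for CATGTG, 5.47% for TCACGTG and 1.89% for TCATGTG. Either longer form may overlap the shorter one, since each contains it. BCL2A1, BBC3 and BAX held such a longer form and BIRC7 did not. The CATGTG of BIRC7 is followed by A, which reads TCACATG on the other strand, and that form was not searched for. These letters are absent from the windows of BCL2, BCL2L1, BCL2L11, BAK1 and PMAIP1. The windows rest on annotated starts, and the earliest start in GENCODE v44 lies 60 bases further upstream for BAX, 22 for BIRC7 and 99 for BBC3. For BCL2L11 (1536 bases) and BCL2 (359) it lies outside the window searched, and for BCL2L1 it lies 26 bases before one RefSeq start and 1121 before the other. The start used in these cells is not measured by 3′ end libraries.

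**Figure D1:**
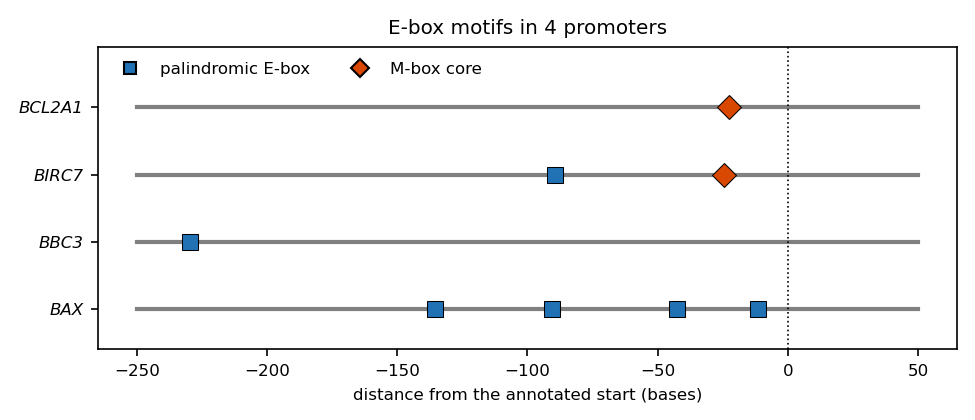
Positions of E-box letters in the RefSeq promoters of 4 members, with the distance from the annotated start in bases on the horizontal axis and 1 line per gene. Squares mark the palindromic E-box and diamonds the M-box core; BAX carries 4 squares, from -138 to -14, and BBC3 has its single square at -232.

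Levels are 3′ end reads divided by the effective library size, times 1000000, and are given as mean ± SD of 3 libraries. Changes are differences of log2(value + 1) from limma with their standard error (SE), and genes with an adjusted p under 0.05 are named as called. The log2(value + 1) scale understates the change of genes near 1. Libraries held 2568187 to 3714608 reads, so that 1 read was worth 0.278 to 0.389. Correlations across genes between replicates were 0.979 to 0.985 in 3 groups and 0.960 to 0.976 in MeWo Dox, where replicate 1 stood apart. All 7 melanocyte lineage markers looked for were listed, with sums of 13021 to 13213 in MeWo control and 6465 to 8163 in MeWo Dox, and for SkMel28 of 11009 to 12307 before and 6597 to 6809 after Dox. PMEL took the largest part of these sums, and DCT went against them in MeWo, from 950 to 1790 (0.91, adjusted p = 2.71e-05). Of 5 fibroblast markers only DCN and LUM were listed, with sums for MeWo of 41.5 to 47.8 before and 9.85 to 19.2 after Dox and for SkMel28 of 10.9 to 13.3 before and 6.04 to 8.91 after, and LUM fell in MeWo (-1.78, adjusted p = 3.06e-05). None of the 9 keratinocyte, leukocyte and endothelial markers was listed. The part of these shifts in the results below was not tested.

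MITF itself, the target of the hairpin, was lower with Dox in both lines. Its levels were 657, 663 and 708 in the MeWo control libraries and 451, 354 and 371 with Dox, and the mean fell by 42.0% (log2 change -0.79, SE 0.11, adjusted p = 6.49e-05). In SkMel28 they were 861, 739 and 792 in control and 575, 578 and 552 with Dox, and the mean fell by 28.7% (-0.49, SE 0.11, adjusted p = 0.00705), a call lost with no mean-variance trend (adjusted p = 0.05). The groups did not overlap in either line. The test of the difference between the lines gave -0.31 (95% interval -0.63 to 0.02, adjusted p = 0.225), and without MeWo Dox replicate 1 it gave -0.41 (adjusted p = 0.0169).

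With Dox, 2 of the 10 members were called in MeWo and 4 of 10 in SkMel28, each of them lower. In MeWo these were BCL2L1 and BBC3, beside a background of 16.7% of all genes called, 8.58% higher and 8.12% lower. In SkMel28 they were BCL2A1, BCL2L1, BBC3 and BIRC7, beside 10.9% of all genes, 5.88% higher and 5.04% lower. BCL2L1 and BBC3 were therefore called lower in both lines, as were 226 of all genes (1.79%). The median change of the 10 members was -0.10 in MeWo and -0.12 in SkMel28, against 0.00 in both lines over all genes. The 3 Dox libraries lay wholly to one side of the 3 control libraries for 4 members in MeWo and 5 in SkMel28, where 28.8% and 32.3% of all genes did so. The Dox change differed between the lines for 2 members, BCL2A1 and BIRC7, beside 7.09% of all genes. The number called in MeWo was 4 without MeWo Dox replicate 1, where MCL1 and BAX joined and 31.0% of all genes were called, and 1 without MeWo control replicate 3, where 10.5% were. In SkMel28 it was 2 without SkMel28 Dox replicate 1, where 6.48% of all genes were called.

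**Figure D2:**
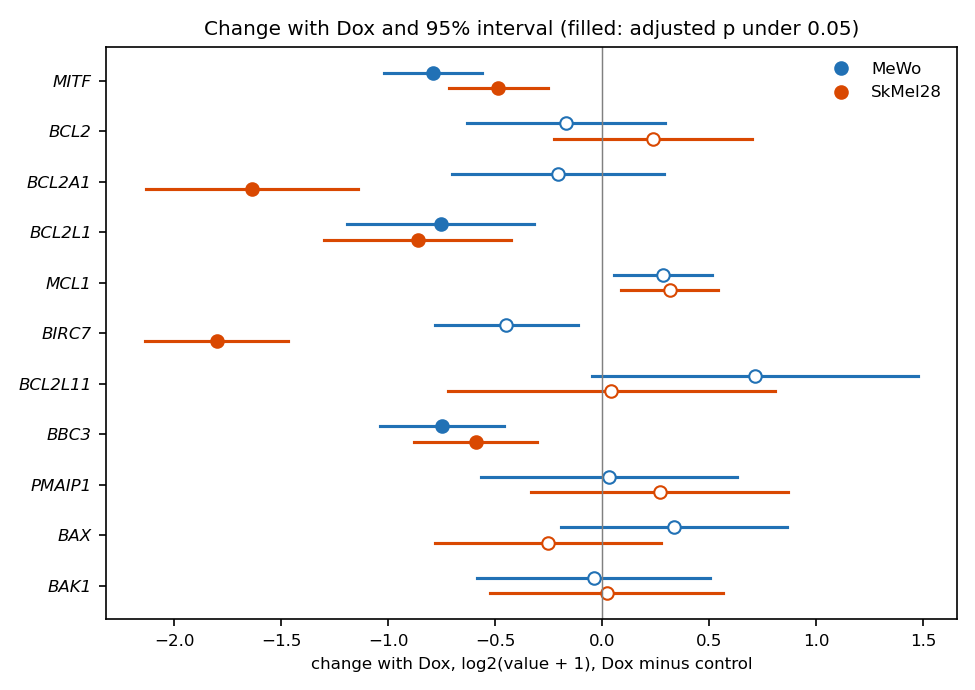
Change with Dox for MITF and the 10 members on the log2(value + 1) scale (horizontal axis), as the limma estimate with its 95% interval, MeWo above SkMel28 for each gene. Filled points have an adjusted p under 0.05: MITF, BCL2L1 and BBC3 in both lines, and BCL2A1 and BIRC7 in SkMel28 alone, at -1.64 and -1.80.

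Of the survival genes, BCL2A1 and BCL2 differed between the lines before any Dox was given. BCL2A1 (chr15:79960892-79971196, minus strand, hg38), which encodes a short-lived protein that binds BH3-only partners, had levels of 8.06, 8.94 and 4.53 in the MeWo control libraries and 431, 423 and 417 in those of SkMel28. The SkMel28 mean of 423 ± 7.10 was 59.0-fold higher than that of MeWo, 7.18 ± 2.33 (5.74, SE 0.23, adjusted p = 3.52e-12). BCL2 (chr18:63123346-63320128, minus strand), the founding member of the family, went the other way, with 37.1, 33.4 and 32.1 in MeWo control and 11.1, 11.7 and 9.20 in SkMel28 control. Its level was 3.20-fold higher in MeWo (SkMel28 minus MeWo -1.59, SE 0.22, adjusted p = 1.01e-05). For neither gene did the libraries of the lines overlap. BCL2L1 and MCL1 were not called between the lines, at 0.26 (95% interval -0.18 to 0.70) and -0.22 (-0.44 to 0.01).

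BCL2A1 fell with Dox in SkMel28. The 3 Dox libraries held 147, 141 and 120, each far below the 3 controls, and the mean fell by 67.9% to 136 ± 14.1 (-1.64, SE 0.23, adjusted p = 0.000157). In MeWo, where the gene gave 11 to 28 reads per library, Dox levels were 3.51, 7.20 and 7.79 and overlapped the controls (-0.21, 95% interval -0.70 to 0.29, adjusted p = 0.599). The Dox changes of the lines differed by 1.43 (95% interval 0.73 to 2.13, adjusted p = 0.0154). This call was lost, at an adjusted p of 0.052, when the spread was estimated without a mean-variance trend. Even after Dox, SkMel28 kept a BCL2A1 level far above that of either MeWo group.

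BCL2 showed no called change with Dox. In MeWo the Dox libraries held 36.7, 26.2 and 28.8, which overlapped the controls (-0.17, 95% interval -0.63 to 0.29, adjusted p = 0.649). In SkMel28 they held 18.7, 10.0 and 10.9 (0.24, -0.22 to 0.70, adjusted p = 0.577). Replicate 1 was the highest Dox library in each line, and without it the SkMel28 estimate was -0.02.

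BCL2L1 (chr20:31664452-31723989, minus strand), the gene of BCL-XL, was among the less abundant survival genes and fell in both lines. Its levels were 13.2, 14.4 and 18.1 in MeWo control and 7.98, 7.96 and 9.82 with Dox, and the mean fell by 43.7% (-0.76, SE 0.21, adjusted p = 0.0185). In SkMel28 they were 22.3, 17.1 and 16.1 in control and 8.61, 10.4 and 9.97 with Dox, and the mean fell by 47.9% (-0.86, SE 0.21, adjusted p = 0.0112). Every Dox library lay below every control library of its line. The 2 changes differed by 0.11 (95% interval -0.51 to 0.72, adjusted p = 0.85). These calls rested on 21 to 80 reads per library: in MeWo the adjusted p was 0.0944 without MeWo control replicate 3 (-0.63) and 0.0543 without MeWo Dox replicate 2 (-0.71), and in SkMel28 it was 0.0684 without SkMel28 control replicate 1 (-0.73) and 0.0584 without SkMel28 Dox replicate 1 (-0.79). With each line fitted alone the MeWo call was lost (adjusted p = 0.0833), and with scaling to the spike-ins it was -0.51 (adjusted p = 0.187).

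MCL1 (chr1:150560895-150579738, minus strand), whose protein is turned over quickly, was the most read survival gene in 3 of the 4 groups. MeWo control libraries held 279, 295 and 259, and Dox libraries 314, 336 and 364. SkMel28 control libraries held 213, 248 and 257, and Dox libraries 297, 287 and 307. In both lines all 3 Dox libraries were above all 3 controls, yet neither change passed the test: 0.28 in MeWo (SE 0.11, adjusted p = 0.0838) and 0.31 in SkMel28 (SE 0.11, adjusted p = 0.0759). Without MeWo Dox replicate 1, which feeds the shared estimate of the spread, the adjusted p was 0.0174 in MeWo (0.33) and 0.0225 in SkMel28 (0.31). The 2 changes differed by -0.03 (95% interval -0.35 to 0.29).

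Since 3′ end libraries give about 1 read per transcript whatever its length, reads of the 4 survival genes were also added, with no correction for how well each 3′ end is captured. The sum was 334 ± 19.4 in MeWo control and 384 ± 24.5 in MeWo Dox, and 692 ± 12.9 in SkMel28 control and 456 ± 13.8 in SkMel28 Dox. SkMel28 control thus had the highest sum, and its Dox libraries (448 to 472) lay below all 3 of its controls (677 to 700) and above the MeWo libraries (314 to 411). BCL2A1 made up 61.2% ± 2.12 of the sum in SkMel28 control and 29.8% ± 2.60 with Dox, while MCL1 made up 34.6% ± 2.77 and 65.2% ± 2.93. In MeWo, MCL1 was 83.0% ± 0.74 of the sum in control and 88.2% ± 1.26 with Dox, and BCL2A1 only 2.12% ± 0.59 and 1.59% ± 0.54. These shares describe RNA and were not tested.

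**Figure D3:**
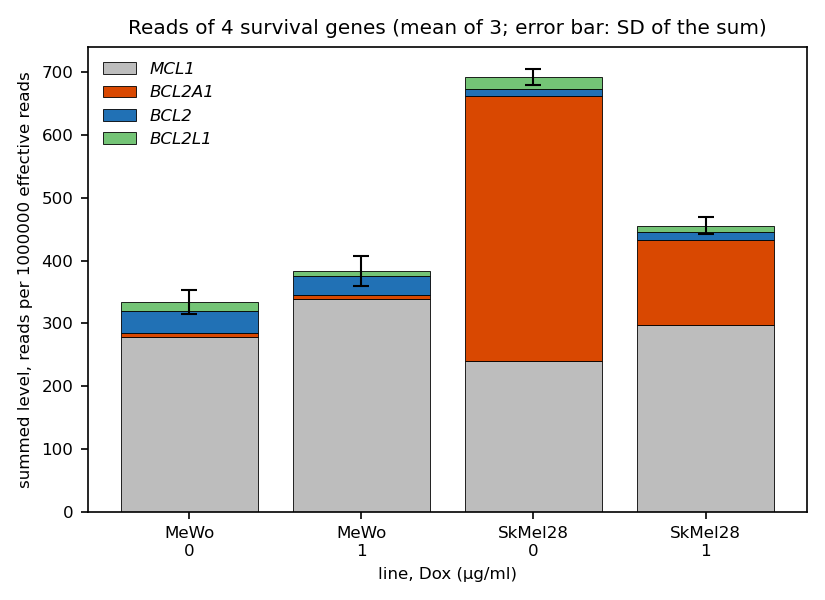
Summed level of the 4 survival genes by line and Dox dose, in reads per 1000000 effective reads (vertical axis), each bar stacked from the means of 3 libraries with the SD of the sum. BCL2A1 forms most of the tall SkMel28 control bar (sum 692) and less of the SkMel28 Dox bar (456), while both MeWo bars (334 and 384) are mainly MCL1.

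Of the BH3-only genes, BBC3 (chr19:47220822-47232766, minus strand), which encodes PUMA, was the most read and the only one called with Dox. Its levels were 201, 179 and 203 in MeWo control and 91.6, 127 and 130 with Dox, and the mean fell by 40.1% (-0.75, SE 0.14, adjusted p = 0.000993). In SkMel28 they were 155, 188 and 161 in control and 102, 115 and 115 with Dox, and the mean fell by 34.0% (-0.59, SE 0.14, adjusted p = 0.00878). No Dox library reached the lowest control of its line, and the 2 falls differed by -0.16 (95% interval -0.57 to 0.25, adjusted p = 0.646). The SkMel28 call was lost without SkMel28 Dox replicate 1 (-0.54, adjusted p = 0.0534), and the MeWo call was lost with scaling to the spike-ins (-0.48, adjusted p = 0.061). BBC3, whose product promotes death, therefore fell alongside BCL2L1, whose product opposes it.

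BCL2L11 (chr2:111119378-111168444, plus strand), the gene of BIM, which binds every survival protein of the family, differed between the lines. Levels were 2.59, 3.50 and 6.48 in MeWo control and 25.3, 16.8 and 15.7 in SkMel28 control, 4.61-fold higher in SkMel28 with no overlap (2.01, SE 0.36, adjusted p = 0.000175). MeWo Dox libraries held 15.6, 4.93 and 4.40, so that replicate 1 alone lay above all controls (0.71, 95% interval -0.05 to 1.48, adjusted p = 0.193), and without it the estimate was 0.20. SkMel28 Dox libraries held 18.1, 20.7 and 19.6, within the range of the controls (0.04, -0.72 to 0.81). The gene overlaps MIR4435-2HG on the other strand, read at 283 to 393 in MeWo Dox and again highest in replicate 1. In control libraries MIR4435-2HG was at 306 ± 15.5 in MeWo and 171 ± 30.0 in SkMel28, the other direction from BCL2L11. Without a stated strand setting the reads of the pair cannot be told apart.

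PMAIP1 (chr18:59899996-59904305, plus strand), the gene of NOXA, which binds MCL1 and BCL2A1, was near the limit of detection. It gave 4 to 12 reads in every library. Group means ran from 2.42 ± 0.99 in SkMel28 control to 3.01 ± 0.31 in SkMel28 Dox, and all 4 groups overlapped. Changes with Dox were 0.03 in MeWo (95% interval -0.57 to 0.63) and 0.27 in SkMel28 (-0.33 to 0.87), so that a difference of this size was not detectable at this depth.

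Neither effector was called in any comparison. BAX (chr19:48954815-48961798, plus strand), the cytosolic effector and the member with 4 E-boxes, had levels of 13.5, 17.5 and 17.8 in MeWo control and 13.7, 26.5 and 24.0 with Dox (0.34, 95% interval -0.19 to 0.86, adjusted p = 0.394). MeWo Dox replicate 1 sat among the controls and the other 2 above them. Without that library the MeWo change was 0.61 (adjusted p = 0.0484) and its difference from SkMel28 was 0.87 (adjusted p = 0.0459), against 0.59 (adjusted p = 0.312) with it. In SkMel28 the levels were 16.7, 26.0 and 20.7 in control and 17.5, 13.4 and 22.1 with Dox, which overlapped (-0.25, -0.78 to 0.27, adjusted p = 0.61).

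BAK1 (chr6:33572547-33580293, minus strand), the effector that resides in the mitochondrial membrane, ran from 7.45 to 12.04 in MeWo control and from 7.66 to 11.7 in MeWo Dox. In SkMel28 it ran from 8.88 to 16.5 in control and from 11.6 to 15.4 with Dox. The groups overlapped throughout, with changes of -0.04 in MeWo (95% interval -0.58 to 0.50) and 0.02 in SkMel28 (-0.52 to 0.57). BAK1 has processed pseudogenes, and how reads matching both were counted is not given in the sources used here.

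BIRC7 (chr20:63235883-63240495, plus strand) was the most read member in both control groups and showed the largest change with Dox of any member. In SkMel28 its levels were 581, 777 and 673 in control and 179, 183 and 216 with Dox. The Dox libraries formed a tight group far below the controls, and the mean fell by 71.5%, from 677 ± 98.4 to 193 ± 20.03 (-1.80, SE 0.16, adjusted p = 1.04e-06). In MeWo the levels were 462, 483 and 448 in control and 249, 396 and 398 with Dox. All 3 Dox libraries were below the controls there too, with replicate 1 well under the other 2, and the change of -0.45 (SE 0.16, 95% interval -0.78 to -0.11) did not pass the test (adjusted p = 0.062).

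The Dox changes of BIRC7 differed between the lines by 1.35 (SE 0.22, 95% interval 0.88 to 1.83, adjusted p = 0.00156), and this call held in all 21 alternatives. The MeWo change was called without MeWo Dox replicate 2 (-0.56, adjusted p = 0.0372), without MeWo Dox replicate 3 (-0.56, adjusted p = 0.043) and with upper-quartile factors (-0.47, adjusted p = 0.0488), and it was -0.22 without MeWo Dox replicate 1. Before Dox, BIRC7 was 1.46-fold higher in SkMel28 (0.53, SE 0.16, adjusted p = 0.00935), a call lost without SkMel28 control replicate 2 (0.43, adjusted p = 0.0535). With Dox the order of the lines turned, and all 3 MeWo libraries (249 to 398) were above those of SkMel28 (179 to 216). BIRC7 and BCL2A1 thus had their larger fall in SkMel28. The point estimate of the MITF fall was the smaller there, but the limma test of the difference did not call it (adjusted p = 0.225). With spike-in scaling the order of the MITF falls turned, at a difference of 0.066. How the falls of BIRC7 and BCL2A1 relate to that of MITF was not tested.

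**Figure D4:**
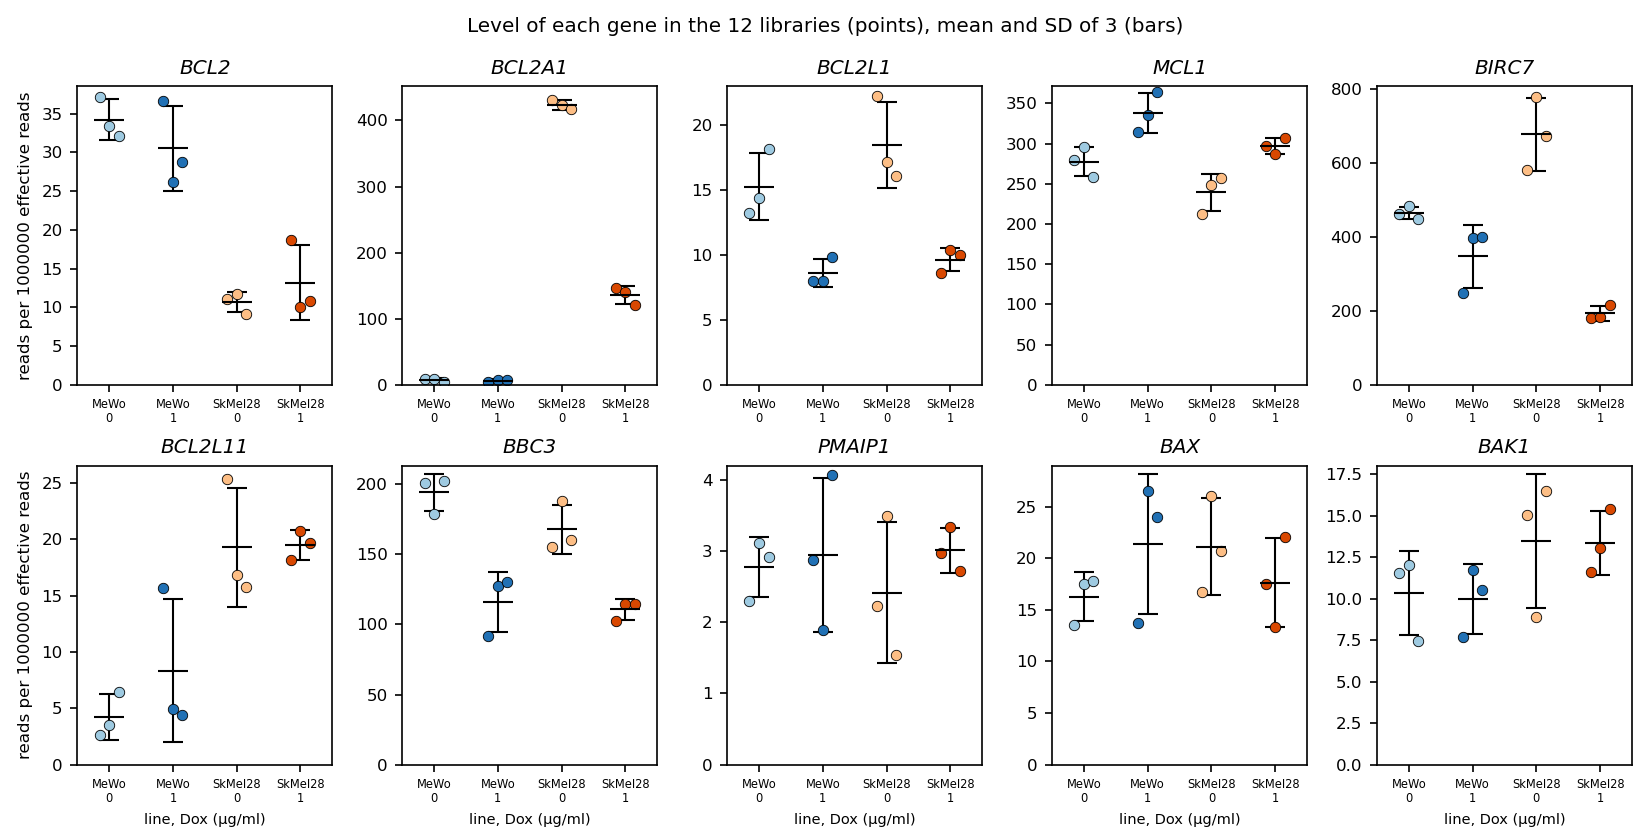
Level of each member in the 12 libraries, 1 panel per gene, with reads per 1000000 effective reads on the vertical axis (from 0) and line and Dox dose in µg/ml on the horizontal axis. Points are libraries and bars the mean and SD of 3; BCL2A1 is near 0 in MeWo and 423 in SkMel28 control, and BIRC7 drops from 677 to 193 in SkMel28.

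Between the uninduced lines, 4 of the 10 members were called: BCL2A1, BCL2L11 and BIRC7 were higher in SkMel28 and BCL2 was higher in MeWo. Over all genes the share called was 51.4%, with 26.6% higher and 24.8% lower in SkMel28, and the members' share was 40.0%. The other 6 members differed by -0.22 to 0.35 on the log2(value + 1) scale.

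Scaling to the spike-ins in place of the effective library size moved the median change of all genes to 0.22 in MeWo and -0.08 in SkMel28. In SkMel28 the 4 calls stood under it. In MeWo, BCL2L1 and BBC3 were no longer called, and MCL1 (0.56, adjusted p = 0.0278) and BCL2L11 (0.94, adjusted p = 0.0476) were called higher. MITF fell in both lines under either scaling.

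For each of the 3 known MITF targets, the other genes whose 4 group means were most like it in shape were found among 9025 genes, by the root-mean-square (RMS) difference of centred log2(value + 1). Nearest to BCL2A1 were RPH3A (RMS difference 0.13), PSCA (0.22) and RGS1 (0.28). PSCA had a level of 6.84 in MeWo control, 324 in SkMel28 control and 84.3 in SkMel28 Dox, and RPH3A and RGS1 were at or near 0 in MeWo. RPH3A, PSCA and RGS1 thus passed the filter through SkMel28 only. Nearest to BIRC7 were DHRS12 (0.16), MGC16275 (0.18) and SLC37A2 (0.23). Nearest to BCL2 were GK (0.03), LAMTOR1 (0.03) and RELT (0.05), where the shape is mainly the difference between the lines. These likenesses rest on 4 group means and are a description.

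To place the members in their pathway, a further 53 genes of apoptosis were followed, of which 47 were listed. With Dox, 6 of 47 were called in MeWo, 5 higher and 1 lower (median change 0.10), beside 16.7% of all genes, and 10 of 47 in SkMel28, 7 higher and 3 lower (median 0.03), beside 10.9%. The difference between the lines was called for 2 of 47, beside 7.09%, and 22 of 47 differed between the uninduced lines, 12 higher and 10 lower in SkMel28, beside 51.4%. Under spike-in scaling the counts were 11 in MeWo, beside 19.7% of all genes, and 3 in SkMel28, beside 7.35%, and without MeWo Dox replicate 1 the MeWo count was 17, beside 31.0%.

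Among death receptors and their adaptors, TNFRSF1A, the receptor of tumour necrosis factor, was called higher in both lines. Its levels were 25.3, 25.6 and 28.2 in MeWo control and 42.5, 62.9 and 55.9 with Dox (0.98, SE 0.18, adjusted p = 0.0011), a call kept in all 22 alternatives. In SkMel28 they were 22.3, 28.9 and 36.8 in control and 49.9, 45.5 and 45.9 with Dox (0.69, SE 0.18, adjusted p = 0.0199). Every Dox library was above the controls of its line, though the SkMel28 call was lost in 6 of 22 alternatives. These were the fits without SkMel28 control replicate 1 (0.52), control replicate 2 (0.70), Dox replicate 1 (0.65) or Dox replicate 2 (0.72), spike-in scaling (adjusted p = 0.102) and each line fitted alone (adjusted p = 0.0509). Between the uninduced lines, FADD, the adaptor that links these receptors to caspases, was at 221 ± 9.64 in MeWo and 48.2 ± 6.33 in SkMel28 (-2.18, SE 0.13, adjusted p = 2.46e-10). TNFRSF10B, a receptor of TRAIL, had the same direction, at 66.9 ± 5.36 and 13.9 ± 1.06 (-2.19, SE 0.22, adjusted p = 3.13e-07), while CASP8, the caspase they recruit, was higher in SkMel28, at 9.58 ± 2.24 and 37.4 ± 1.57 (1.88, SE 0.32, adjusted p = 9.64e-05). None of these 3 was called with Dox in either line.

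BH3-only and effector genes outside the 10 moved upward in MeWo where they were called. BMF, a BH3-only gene tied to loss of anchorage, had levels of 2.88, 1.94 and 4.21 in MeWo control and 9.89, 7.20 and 6.77 with Dox (1.18, SE 0.27, adjusted p = 0.0064). In SkMel28 it had 6.40, 11.4 and 8.05 in control and 18.7, 12.7 and 15.1 with Dox, without overlap, but the change did not pass the test (0.80, SE 0.27, adjusted p = 0.0758). BOK, a relative of BAX and BAK1, went from 4.90 ± 1.77 to 10.3 ± 3.14 in MeWo (0.96, SE 0.26, adjusted p = 0.0182), a call lost without MeWo control replicate 3 (0.69, adjusted p = 0.104) or MeWo Dox replicate 3 (0.74, adjusted p = 0.105). The MeWo calls of BMF and BOK were also lost with each line fitted alone. BID, BAD, BIK and HRK were not called in either line. BNIP3, a mitophagy receptor with a BH3 motif, was called lower in MeWo (-0.71, adjusted p = 0.0452), with MeWo Dox replicate 1 (74.1) among the controls (59.9 to 77.3) and the others at 29.2 and 36.2, and without that library the change was -1.10 (adjusted p = 1.05e-05). That call was lost in 18 of 22 alternatives, among them the fits without any 1 library other than MeWo Dox replicate 1 (-0.83 to -0.44).

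Among the other inhibitors of apoptosis, BIRC5 (survivin), which also serves in mitosis, fell in SkMel28, from 101 ± 6.39 to 65.7 ± 4.50 (-0.61, SE 0.14, adjusted p = 0.00709). In MeWo it was 113 ± 4.18 in control and 119 ± 23.6 with Dox (0.06, adjusted p = 0.8). The changes differed between the lines by 0.67 (adjusted p = 0.0448), a call lost in 14 of 21 alternatives, among them any fit without 1 library other than MeWo Dox replicate 1 (0.54 to 0.70). BIRC2 was called higher in SkMel28, from 56.4 ± 13.3 to 87.1 ± 2.82 (0.65, adjusted p = 0.0322), a call lost in 8 of 22 alternatives, among them the fits without SkMel28 control replicate 1 or 2 or any SkMel28 Dox library (0.44 to 0.71). XIAP, BIRC3 and BIRC6 were not called with Dox. Before Dox, BIRC2 was higher in SkMel28 than in MeWo (0.51, adjusted p = 0.0302), a call lost in 6 of 21 alternatives.

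Among the apoptosome and caspases, CASP10, an initiator caspase, was called lower in SkMel28, with 13, 14 and 7 reads in control and 5, 0 and 4 with Dox (-1.36, adjusted p = 0.0114). That call was lost in 5 of 21 alternatives. These were the fits without SkMel28 control replicate 2 (-1.23) or Dox replicate 2 (-0.95), DESeq2 (adjusted p = 0.115), a pseudocount of 0.1 (adjusted p = 0.076) and each line fitted alone (adjusted p = 0.0602). APAF1, CYCS and CASP9 were not called with Dox in either line. Before Dox, CASP10 was higher in SkMel28 than in MeWo (1.47, adjusted p = 0.00111). The MeWo control libraries gave 2, 1 and 3 reads of it.

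Genes that control the BH3 genes or the damage response were measured alongside. FOXO1, a transcription factor known to drive BCL2L11 and BBC3, rose in MeWo from 34.8 ± 4.36 to 62.0 ± 7.35 (0.81, SE 0.19, adjusted p = 0.00755) in all 22 alternatives. In SkMel28, where it was much less read, it was 4.36 ± 0.87 in control and 7.23 ± 1.00 with Dox (0.62, adjusted p = 0.0469), a call lost in 15 of 22 alternatives, among them the fits without any MeWo control library, MeWo Dox replicate 3, SkMel28 control replicate 1 or 2 or any SkMel28 Dox library (0.53 to 0.70). MDM2, MDM4 and FDXR were not called with Dox in either line, and FDXR was lower in SkMel28 than in MeWo before Dox (-1.38, adjusted p = 1.7e-05). AEN, another gene of the damage response, was called lower with Dox in SkMel28 (-0.48, adjusted p = 0.0455). That call was lost in 13 of 22 alternatives, and AEN is described further below. ATF3, a stress-induced factor, had 3, 1 and 2 reads in SkMel28 control and 12, 12 and 15 with Dox (adjusted p = 0.00119). TP73 had 0 reads in every MeWo control library and 29, 17 and 21 in those of SkMel28; a count of 0 allows up to 3 reads in a library. Of the genes that set MCL1 protein turnover, the ubiquitin ligase HUWE1 was called higher in MeWo (0.45, adjusted p = 0.0229). It was lost in 5 of 22 alternatives, among them the fits without MeWo control replicate 1 or MeWo Dox replicate 2 or 3 (0.37 to 0.42). The deubiquitinase USP9X was called higher in SkMel28 (0.46, adjusted p = 0.0326), and lost in 9 of 22, among them the fits without any 1 SkMel28 library (0.41 to 0.50).

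**Figure D5:**
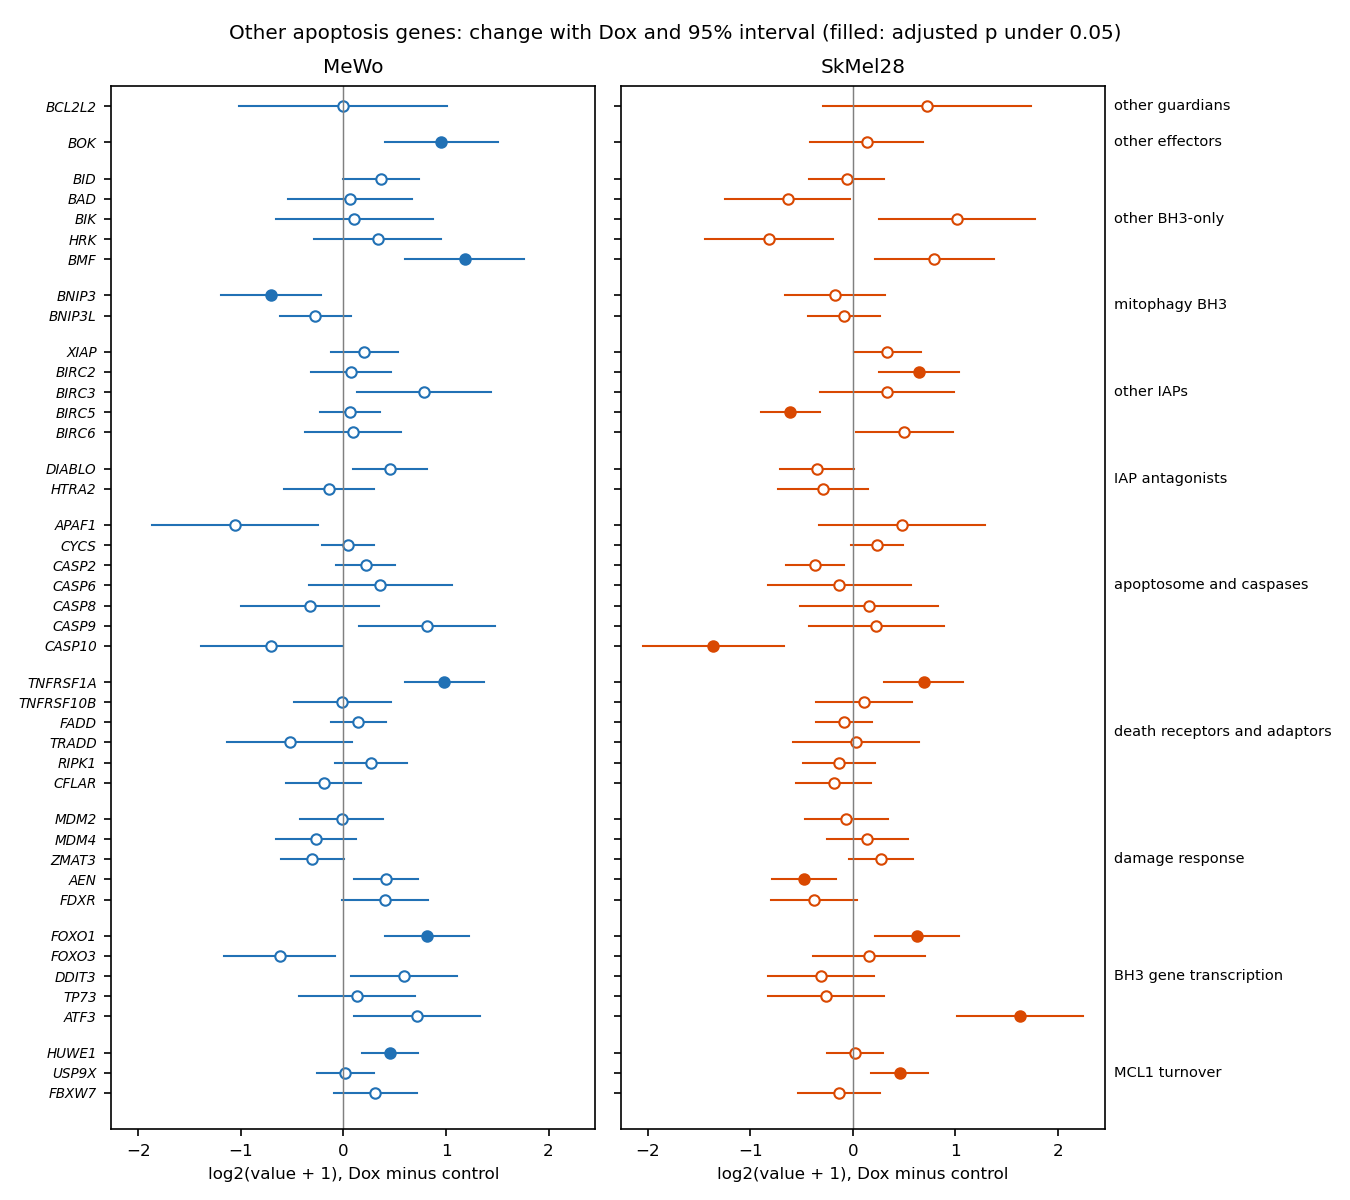
Change with Dox of 42 of the 47 listed apoptosis genes outside the 10 members (5 genes that are not reported singly, 2 of them called in SkMel28, are not drawn), by role, in MeWo (left) and SkMel28 (right), on the log2(value + 1) scale with 95% intervals. Filled points have an adjusted p under 0.05: 6 in MeWo and 8 in SkMel28, with TNFRSF1A and FOXO1 filled in both.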

How the data were processed

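RNA was measured in 12 libraries made with the QuantSeq Forward 3′ kit, in 4 groups of 3 taken from the labels. The submitters' processing notes name FastQC 0.11.7, cutadapt 2.8, STAR 2.5.1b, edgeR and hg38. The counting tool, annotation and strand setting are not given in the sources used here. The deposited values are a normalized signal: the authors divided reads by an effective library size (edgeR trimmed-mean factors) and multiplied by 1000000. Dividing by the value of 1 read gave whole reads for 100% of values (tolerance 0.1). Listed genes have at least 1 in at least 3 libraries.

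The 67 spike-ins were set aside, and 12616 genes were fitted with limma 3.58.1 (R 4.3.3) on log2(value + 1), using 4 group means, all 12 libraries and a trend of variance on mean. Tests were two-sided, with Benjamini-Hochberg adjustment over all genes of a contrast. The fit was tested on data simulated from the MeWo control means, with the same spread setting for all genes and groups. That setting does not include the wider spread between the MeWo Dox libraries. Alternatives were edgeR 4.0.16 quasi-likelihood (the study's own method) and DESeq2 1.42.0 on recovered reads, upper-quartile and spike-in scaling, pseudocounts of 0.1 and 5, a filter of at least 5 in at least 3 libraries, no trend, each line alone, a replicate block, and leaving out each library.

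The members and lists were chosen with earlier results of these data known. From the further apoptosis genes the text draws, per role, on the largest called changes with Dox and the largest called differences between the uninduced lines, apart from genes not reported here. Gene coordinates are from GENCODE v44 (hg38) and promoters from RefSeq (GRCh38.p14). Libraries of equal replicate number were not treated as pairs. Deviations from the group means of equally numbered control and Dox libraries correlated at -0.18 to 0.16, and of others at -0.20 to 0.20. These values show no pairing, but with 3 libraries a group they cannot exclude it. Intervals and read limits cover counting and replicate error only, since reads without molecular identifiers are not independent molecules. Genes not reported here are still in the counts.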

Additional observations from a re-analysis of the deposited data

Results flagged for a closer look

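The Dox change was found to differ between the lines, by the test of the difference itself (MeWo minus SkMel28, limma, adjusted over all genes), for 4 genes followed here. They were 2 of the 10 members and 2 of the 47 further genes, beside 7.09% of all genes. For BIRC7 the difference was 1.35 (adjusted p = 0.00156) and for BCL2A1 it was 1.43 (adjusted p = 0.0154), and both genes fell in SkMel28.

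For AEN, an exonuclease gene, the difference was 0.89 (adjusted p = 0.0155). Its levels were 44.6, 46.6 and 41.5 in MeWo control and 47.9, 61.0 and 71.5 with Dox, all above the controls, but the MeWo change did not pass the test (0.42, adjusted p = 0.0613); it was called without MeWo Dox replicate 1 (0.57, adjusted p = 0.00236) and with spike-in scaling (0.69, adjusted p = 0.0163). In SkMel28 they were 90.5, 112 and 99.2 in control and 73.3, 67.8 and 74.3 with Dox, all below the controls (-0.48, adjusted p = 0.0455), a call lost in 13 of 22 alternatives, among them the fits without any 1 MeWo control or SkMel28 library (-0.55 to -0.40). The difference between the lines was called in 20 of 21 alternatives, the exception being the fit with no mean-variance trend (adjusted p = 0.0501).

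For BIRC5 the difference was 0.67 (adjusted p = 0.0448), and it was lost in 14 of 21 alternatives, among them each fit that left out 1 library other than MeWo Dox replicate 1 (0.54 to 0.70, adjusted p up to 0.117).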

How the results depend on the processing

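Over 855 comparisons of a member's value with an alternative, 801 kept their direction and side of the threshold, 10 calls were lost, 9 were gained and 35 values, none of them called in either fit, changed sign. The calls of BCL2A1 and BIRC7 in SkMel28 held in all 22 alternatives. With spike-in scaling the sign turned for BCL2 (0.10), BCL2A1 (0.025) and BAK1 (0.21) in MeWo, for BCL2L11 (-0.053) and BAK1 (-0.073) in SkMel28, and for the line difference of MCL1 (0.34), BAK1 (0.28), BBC3 (0.21), PMAIP1 (0.031) and MITF (0.066). On recovered reads it turned in SkMel28 for BCL2L11 with edgeR (-0.00067) and for BAK1 with edgeR (-0.00717) and DESeq2 (-0.015). The cause was not tested.

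Leaving out 1 library at a time turned the sign of further values near 0, over these ranges: BAK1 -0.24 to 0.12 in MeWo, -0.23 to 0.18 in SkMel28 and -0.26 to 0.19 for the line difference; BCL2 -0.024 to 0.39 and BCL2L11 -0.082 to 0.25 in SkMel28; BCL2A1 -0.46 to 0.10, PMAIP1 -0.17 to 0.24 and BIRC5 -0.073 to 0.21 in MeWo; and for the line difference BBC3 -0.25 to 0.00428, BCL2L1 -0.026 to 0.23 and MCL1 -0.086 to 0.0505. PMAIP1 between the uninduced lines ran from -0.40 to 0.018.

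The number of members called was, with 1 library left out, 1 to 4 in MeWo, and 2 to 5 in SkMel28. It was 1 in MeWo with each line fitted alone, where 6.44% of all genes were called. For the line difference it was 1 with no mean-variance trend, where 4.39% of all genes were called. Of the 47 further genes, 4 to 17 were called in MeWo, 2 to 11 in SkMel28 and 1 to 14 for the line difference with 1 library left out, the highest each time without MeWo Dox replicate 1; over all genes the shares called in the same fits were 10.2 to 31.0%, 6.21 to 16.2% and 3.56 to 24.7%. Spike-in scaling gave 11, 3 and 7 respectively, and each line alone gave 3 in MeWo and 6 in SkMel28. No mean-variance trend gave 6 in SkMel28, beside 8.74% of all genes, and 0 for the line difference, beside 4.39%. A pseudocount of 0.1 gave 1 for the line difference, beside 5.07%. With the replicate block, 5 were called in SkMel28, beside 8.48% of all genes, and 1 for the line difference, beside 5.08%. The members' calls with Dox were 2 in MeWo, beside 14.4%, and 4 in SkMel28, beside 8.48%, the same numbers as without the block. Among the 10 members, PMAIP1 had the fewest reads, at 4 to 12 per library.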
